A study of Homo sapiens with 6 samples.

Results

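The comparison described here is between 22RV1 cells that overexpressed the long noncoding RNA MAGI2-AS3 and their control, across 12360 annotated genes of a table of 24872 rows. A gene was included when it had an Ensembl identifier and a mean of at least 0.5 FPKM (fragments mapped to a gene, scaled for its transcript length and for all mapped fragments of the library) over the 6 libraries of the series. The emphasis is on the smaller changes and their functions rather than on the largest falls. RNA sequencing was done on 3 groups of 2 libraries, all labelled day 2: a control whose genotype is given as NC and is not otherwise described, cells overexpressing MAGI2-AS3 (OE), and a miR-106a-5p group titled mimics. All groups were 22RV1, an established line from a castration-resistant human prostate carcinoma, with no other shared allele or agent in the labels. The protocol speaks of infection with overexpression plasmids, so whether the microRNA came as a plasmid or as a synthetic duplex is uncertain. The labels do not describe an empty vector, a clone or a pool. No label states that paired libraries of a group are separate cultures, and the p-values reflect library-to-library spread alone, possibly technical.

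MAGI2-AS3 is transcribed from the strand opposite MAGI2, and noncoding RNAs of this kind are known to act by binding microRNAs, proteins or chromatin. Prostate cancer cells rely on androgen signaling, on the synthesis of sterols and fatty acids under the SREBP transcription factors, and on the NRF2 factor that switches on thiol and quinone defense genes. The series title joins MAGI2-AS3 with miR-106a-5p and the small GTPase RAB31. MAGI2-AS3 itself was not analysed here, so its level in the OE libraries was not checked against the label.

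The 4 libraries compared summed to 404156 to 421428 FPKM. Mitochondrially encoded genes took 9.14% and 8.29% of that sum in NC and 9.67% and 9.49% in OE, against 6.23% and 0.533% in the mimics libraries. Markers of prostate luminal cells were well expressed, with all 10 tested and a summed level of 1261 and 1362 FPKM in NC and 1076 and 1135 in OE. Of 10 leukocyte markers 1 was tested, with a summed level of 2.46 and 2.56 FPKM in NC and 2.49 and 2.07 in OE and with CD3E and MS4A1 listed at 0. None of 7 endothelial markers reached the minimum, CDH5 and KDR were listed at 0, and the sums were 0.411 and 0.224 FPKM in NC and 0.207 and 0.316 in OE. Of 5 basal prostate markers 1 was tested, KRT5 and TP63 were listed at 0, and the sums were 1.42 and 1.29 FPKM in NC and 0.850 and 0.939 in OE. Of 10 fibroblast markers 4 were tested, FAP and POSTN were listed at 0, and the sums were 89.6 and 85.95 FPKM in NC and 90.6 and 86.6 in OE.

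Most genes differed little. The median size of the log2 change was 0.0996, 90% of genes were within 0.304, and 65 genes differed by 1 or more. With limma fitted to all 6 libraries, so that the 3 groups shared 1 estimate of the spread, 2 annotated genes rose in OE (0.0162% of those tested) and 33 fell (0.267%). When the spread was estimated from the 4 NC and OE libraries alone, 11 genes were called higher (0.089%) and 103 lower (0.833%), and these 114 included all 35 of the first fit. These are called the 6-library and the 4-library fit, and a gene is said to have risen or fallen only where it passed the first. The 6-library fit was the one chosen for the calls, and it takes the spread of the mimics libraries, which differed more from each other, to hold for NC and OE as well. Leaving out 1 of the NC or OE libraries left 5 to 8 calls, and leaving out mimics replicate 1 or 2 gave 120 in each case.

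Smaller changes were described as a moderate band: a log2 change between 0.3 and 1 in size, an unadjusted limma p under 0.01 and no overlap between OE and NC libraries. The band held 34 genes higher in OE (0.275%) and 169 lower (1.37%), with median changes of 0.60 and -0.57. Of these 203 genes 7 passed the 6-library fit and 51 more the 4-library fit only. Over all tested genes, the balance of higher and lower depended on the scaling. Both OE libraries lay above both NC libraries for 15.3% of tested genes and under both for 27.2%, whereas after quantile normalization these shares were 22.1% and 21.9%. The band kept more lower than higher genes under each scaling, and quantile normalization moved it to 60 higher and 146 lower. The changes below were read against the median of all genes, -0.02. Counts of list members above or under NC in both OE libraries are to be read beside the shares as deposited, 15.3% and 27.2%. A signed value in brackets after the levels of a gene is its log2 change in OE against NC, and a second adjusted p is that of the 4-library fit.

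**Figure D1:**
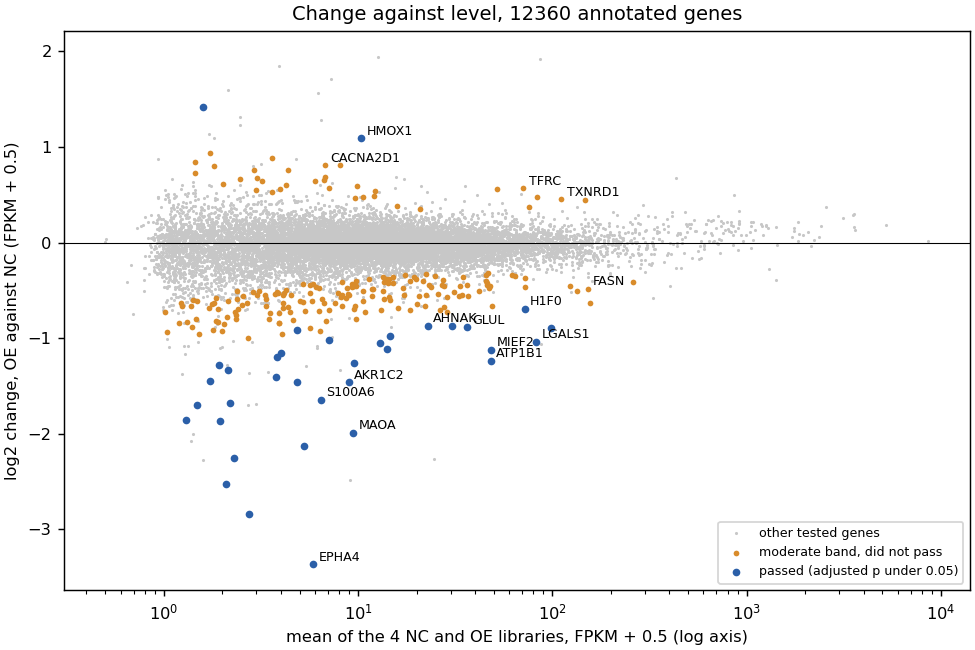
Log2 change of OE against NC (vertical axis) against the mean FPKM + 0.5 of the 4 compared libraries (log axis), with 1 point per annotated gene. Blue points passed the 6-library fit (2 higher, 33 lower), orange points are the other genes of the moderate band, and grey points are the remaining genes; orange points lie mostly below the line at 0.

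The deepest falls were those of EPHA4, GJA3, RGMA, AC235565.2, SPOCK2, MAOA, CRYAB, DKK1, STAT6, ANXA2 and S100A6, with log2 changes from -3.37 to -1.64. Below them stood a second tier of genes for membrane transport, the cell surface, the cytoskeleton and gene control. ATP1B1 (ENSG00000143153), the beta subunit of the sodium-potassium pump, was at 67.00 and 67.7 FPKM in NC and 30.2 and 26.4 in OE, a change of -1.24 (95% confidence interval -1.55 to -0.92, adjusted p = 0.0129). The OE libraries did not overlap with NC, and neither did those of mimics, at 33.3 and 25.3 FPKM. In bulk libraries fewer cells that express a gene and less RNA per cell cannot be told apart. SLC37A1, a phosphate-linked glucose-6-phosphate antiporter, was at 4.35 and 5.25 FPKM in NC and 1.74 and 1.88 in OE (-1.20, adjusted p = 0.0249). SLC43A3, a purine nucleobase transporter, was at 1.86 and 2.23 FPKM in NC and 0.483 and 0.382 in OE (-1.45, adjusted p = 0.048). All 3 transport genes were lower in both OE libraries than in both NC libraries. ATP1B1 lies antisense to exons of NME7, SLC37A1 overlaps exons of RSPH1 and SLC43A3 those of another annotated transcript, so their read assignment is uncertain.

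Several secreted and surface proteins fell as well. A2M, a broad protease inhibitor of plasma, was at 6.17 and 7.13 FPKM in NC and 2.11 and 2.096 in OE (-1.46, adjusted p = 0.0329). NPR1, the receptor for atrial natriuretic peptide, was at 4.73 and 5.31 FPKM in NC and 1.43 and 1.74 in OE (-1.41, adjusted p = 0.0129), and F3, tissue factor, which starts coagulation, at 38.9 and 39.1 FPKM in NC and 21.2 and 20.9 in OE (-0.87, adjusted p = 0.0129). The mimics libraries stood near OE for NPR1 (1.55 and 1.77 FPKM) and nearer to NC for F3 (30.6 and 34.04). BST2 (tetherin), an interferon-induced surface protein that holds budding virions, was at 2.23 and 2.19 FPKM in NC and 0.489 and 0.766 in OE (-1.28, adjusted p = 0.0335), with mimics at 2.55 and 2.83. AZGP1, a secreted zinc-binding glycoprotein of the prostate, was at 17.7 and 20.02 FPKM in NC and 8.903 and 9.78 in OE (-0.98, adjusted p = 0.0334). COL9A3, a chain of cartilage collagen IX, was at 5.12 and 4.93 FPKM in NC and 1.82 and 2.15 in OE (-1.16, adjusted p = 0.0213). Each of these genes was lower in both OE libraries than in both NC libraries, and in mimics BST2 was above NC and AZGP1 overlapped with it. A2M and COL9A3 have annotated exons of other genes on the opposite strand.

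Among intracellular proteins, LGALS1 (galectin-1), a glycan-binding protein, was among the most abundant to fall, at 102 and 119 FPKM in NC and 53.7 and 53.02 in OE (-1.04, adjusted p = 0.0194). AHNAK, a giant scaffold protein under the plasma membrane, was at 29.3 and 28.9 FPKM in NC and 14.99 and 16.4 in OE (-0.87, adjusted p = 0.0129), and AKAP12, an anchor for protein kinase A, at 18.4 and 15.7 FPKM in NC and 8.298 and 7.66 in OE (-1.05, adjusted p = 0.0129). For AKAP12 the mimics libraries lay on the other side of NC, at 30.8 and 28.7 FPKM. GLUL, glutamine synthetase, was at 43.5 and 50.2 FPKM in NC and 25.1 and 25.02 in OE (-0.89, adjusted p = 0.0129). GSDMD, the pore-forming protein of pyroptosis, was at 8.88 and 9.16 FPKM in NC and 3.97 and 4.43 in OE (-1.02, adjusted p = 0.0229). The groups did not overlap for any of these 5 genes. Regulators of transcription and chromatin that fell were LMO4, a LIM-only cofactor (-1.11, adjusted p = 0.0129), and H1F0, the linker histone of slowly dividing cells (-0.69, adjusted p = 0.029). LMO4 was at 19.4 and 18.05 FPKM in NC and 8.58 and 8.22 in OE, and H1F0 at 86.2 and 90.9 FPKM in NC and 55.3 and 53.8 in OE. Both were lower in every OE library than in either NC library. ADIRF, a small adipogenesis factor, was at 13.4 and 12.6 FPKM in NC and 4.91 and 5.295 in OE (-1.26, adjusted p = 0.00647) and shares exons with AGAP11. Of the 17 annexin and S100 genes tested, 3 fell, S100A6, ANXA2 and S100A4, against 0.267% of all tested genes. In both OE libraries 8 (47.1%) were under NC, against 27.2% of all tested genes.

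On the higher side stood several NRF2 targets and the iron receptor gene TFRC. NRF2 (NFE2L2) is released from KEAP1 when cysteines of KEAP1 are oxidised, and it then switches on genes for glutathione synthesis, quinone reduction and heme breakdown. Of 32 tested members, HMOX1 rose, AKR1C2 fell, NQO1 and GCLM were higher in the 4-library fit only, and TRIM16L, TXNRD1 and OSGIN1 were in the higher band without passing either fit. Both OE libraries lay above both NC libraries for 15 of the 32 (46.9%) and under both for 7 (21.9%). Of all tested genes 15.3% lay above and 27.2% under. The median change of the list was 0.12. The median was 0.09 in OE1 and 0.16 in OE2 against the NC mean, while the NC libraries differed by 0.13 from each other, so the shift of the list as a whole was about as large as the spread of the control.

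The genes that rose were HMOX1 and the annotated gene Z83844.3. Z83844.3 was at 0.339 and 0.383 FPKM in NC and 1.44 and 2.22 in OE (1.42, adjusted p = 0.0364). Its NC levels lay under the 0.5 FPKM added before the logarithm. HMOX1, which breaks heme down to iron, biliverdin and carbon monoxide, was at 6.14 and 6.08 FPKM in NC and 13.6 and 13.6 in OE (1.09, 95% confidence interval 0.80 to 1.38, adjusted p = 0.0129). GCLM, the modifier subunit of the enzyme that limits glutathione synthesis, was at 9.83 and 9.18 FPKM in NC and 13.97 and 14.1 in OE (0.54, adjusted p = 0.265, and 0.0484 in the 4-library fit). Its mimics libraries, at 8.49 and 10.1 FPKM, overlapped with NC. NQO1, a quinone reductase, was at 41.6 and 41.3 FPKM in NC and 63.4 and 59.1 in OE (0.56, adjusted p = 0.273, and 0.0268 in the 4-library fit). TXNRD1, cytosolic thioredoxin reductase, was at 91.5 and 95.2 FPKM in NC and 129 and 127 in OE (0.45, adjusted p = 0.264 and 0.0529). In these 4 genes the libraries of NC and of OE each lay close together and did not overlap between these groups. SLC7A11, the cystine importer, was at 5.28 and 3.88 FPKM in NC and 7.65 and 6.68 in OE (0.61, adjusted p = 0.575), above NC in both OE libraries and under it in mimics (2.68 and 3.83). The aldo-keto reductases, also NRF2 targets, went the other way. AKR1C2, which reduces dihydrotestosterone, was at 11.8 and 13.3 FPKM in NC and 5.04 and 3.57 in OE (-1.46, adjusted p = 0.015), and AKR1C1 (-0.57) and AKR1C3 (-0.48) were lower without passing. Near-identical copies make read assignment uncertain among AKR1C1, AKR1C2 and AKR1C3 and between TRIM16 and TRIM16L, and NQO1 and SLC7A11 have antisense transcripts.

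The antioxidant response element, through which NRF2 acts, has the core TGACNNNGC. It was searched on both strands of the promoters, taken as the 250 bases before to 50 after the start in RefSeq on GRCh38.p14. Of 9770 tested genes with a promoter 15.2% held it, as did 4 of 24 NRF2 targets (16.7%): GCLM, PGD, PIR and TXNRD1. NQO1 has no match in this window, which says only that these letters are not there. The stretches around the matches of GCLM and TXNRD1 are shown because both genes were in the higher band, with the core in capitals (GCLM from the minus strand, chr1:93909441-93909479, and TXNRD1 from the plus strand, chr12:104215665-104215794).
GCLM: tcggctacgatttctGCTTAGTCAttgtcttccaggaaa
TXNRD1: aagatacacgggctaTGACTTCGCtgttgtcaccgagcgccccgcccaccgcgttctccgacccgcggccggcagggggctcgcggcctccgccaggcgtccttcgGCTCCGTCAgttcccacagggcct
The TXNRD1 stretch holds 2 matches, 1 on each strand.

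Iron genes had no common direction. Of 29 tested, 4 (13.8%) were above NC in both OE libraries and 6 (20.7%) under it. The shares of all tested genes were 15.3% and 27.2%. The iron list had a median of -0.00077, and the sign of the median depended on the scaling. HMOX1 is in this list too. TFRC, the transferrin receptor that brings iron into cells, was at 59.3 and 53.97 FPKM in NC and 88.7 and 79.9 in OE (0.57, 95% confidence interval 0.33 to 0.81, adjusted p = 0.116, and 0.0391 in the 4-library fit). The mimics libraries, at 49.9 and 52.4 FPKM, were slightly under NC. TFR2, the iron-sensing second receptor, was lower at 2.19 and 2.72 FPKM in NC and 1.28 and 1.19 in OE (-0.76, adjusted p = 0.321). FTH1, the heavy chain of the iron store ferritin and an NRF2 target, was at 680.0 and 746 FPKM in NC and 986 and 1021 in OE (0.49, adjusted p = 0.621). Each of these 3 genes had no overlap between OE and NC, TFRC and FTH1 being higher in OE and TFR2 lower. FTH1 overlaps BEST1 on the opposite strand.

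**Figure D2:**
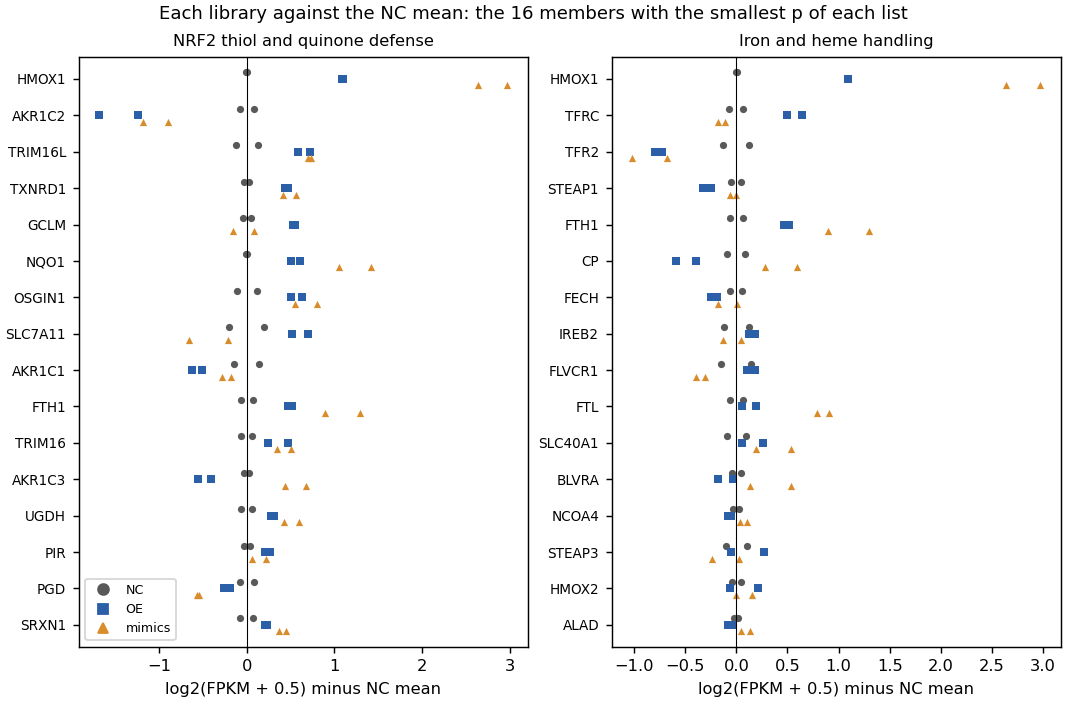
Level of each library as log2(FPKM + 0.5) minus the NC mean (horizontal axis) for the 16 members with the smallest p of the NRF2 list (left) and the iron and heme list (right), with 1 point per library. OE squares lie right of the NC circles for HMOX1, TFRC, GCLM, NQO1 and TXNRD1 and left of them for AKR1C2 and TFR2; the mimics triangles, measured against the same NC libraries, are far higher for HMOX1 and at NC for GCLM.

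On the lower side the most even group was the sterol pathway. Cells make cholesterol from acetyl-CoA by way of HMG-CoA, mevalonate, squalene and lanosterol, and SREBP2, held back by INSIG1 when sterols are plentiful, drives nearly all of these enzymes. Every one of 20 tested synthesis enzymes had a negative change, with a median of -0.34. In both OE libraries 17 (85%) were under NC and none above it, against 27.2% and 15.3% of all tested genes. None passed the 6-library fit, and 4 were in the lower band, which held 1.37% of all tested genes. The 4-library fit called FDFT1 and SQLE lower, as it did 0.833% of all tested genes. The list median was -0.36 in OE1 and -0.29 in OE2 against the NC mean, and the NC libraries differed from each other by 0.10. Under each of 5 scalings 17 genes were under NC. The list was chosen with earlier results of these data known, so its evenness is a description.

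From the start of the pathway, HMGCS1, which makes HMG-CoA, was at 57.5 and 51.2 FPKM in NC and 40.2 and 37.7 in OE (-0.47, adjusted p = 0.262 and 0.0701 in the 6-library and 4-library fits). FDFT1, squalene synthase, was the most abundant of the 4 enzymes in the band, at 179 and 203 FPKM in NC and 118 and 127 in OE (-0.64, adjusted p = 0.268 and 0.03). In both genes the OE libraries were lower without overlap, and mimics went lower still for HMGCS1 (18.3 and 19.9 FPKM). SQLE, squalene epoxidase, was at 21.5 and 23.1 FPKM in NC and 13.8 and 13.2 in OE (-0.70, adjusted p = 0.487 and 0.0154), and HSD17B7, which reduces the sterol ketone, at 9.46 and 9.15 FPKM in NC and 5.87 and 6.55 in OE (-0.55, adjusted p = 0.274 and 0.0701). The smallest differences were in SC5D (-0.03) and PMVK (-0.09). The mimics comparison, which uses the same NC libraries, had a median of -0.76 over the 20 enzymes. HMGCS1 and FDFT1 have transcripts on the opposite strand.

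Sterol uptake and its control were lower in fewer genes: of 14 tested, 8 were under NC and 1 above it in both OE libraries, with a median of -0.20. INSIG1 was at 55.8 and 60.2 FPKM in NC and 39.1 and 41.8 in OE (-0.51, adjusted p = 0.644 and 0.044). It was lower in both OE libraries and passed the 4-library fit only. The factors themselves differed less, SREBF2 by -0.26 and SREBF1, which lies in the chromosome 17 stretch described further on, by -0.32. In fatty acid synthesis 12 of 19 genes were under NC and 1 above it, with a median of -0.16. SCD, which puts the double bond into oleate, was at 114 and 122 FPKM in NC and 55.1 and 57.5 in OE (-1.06, 95% confidence interval -1.59 to -0.52, adjusted p = 0.252 and 0.00224). Both OE libraries were far under both NC libraries and close to each other, while the mimics libraries, at 65.1 and 34.8, lay far apart. FASN, fatty acid synthase, was at 171 and 182 FPKM in NC and 115 and 138 in OE (-0.49, adjusted p = 0.308), and FADS1, a desaturase of polyunsaturated fatty acids that is antisense to FADS2, at 49.7 and 52.6 FPKM in NC and 38.3 and 38.98 in OE (-0.40, adjusted p = 0.274). On the burning side, CPT1A, which admits fatty acids to mitochondria, was higher at 27.3 and 28.7 FPKM in NC and 43.04 and 41.6 in OE (0.59, adjusted p = 0.77 and 0.0201). Of all 22 oxidation genes tested, CPT1A among them, 4 (18.2%) were above NC and 9 (40.9%) under it, and the median was -0.08. Of all tested genes 15.3% were above NC and 27.2% under it.

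**Figure D3:**
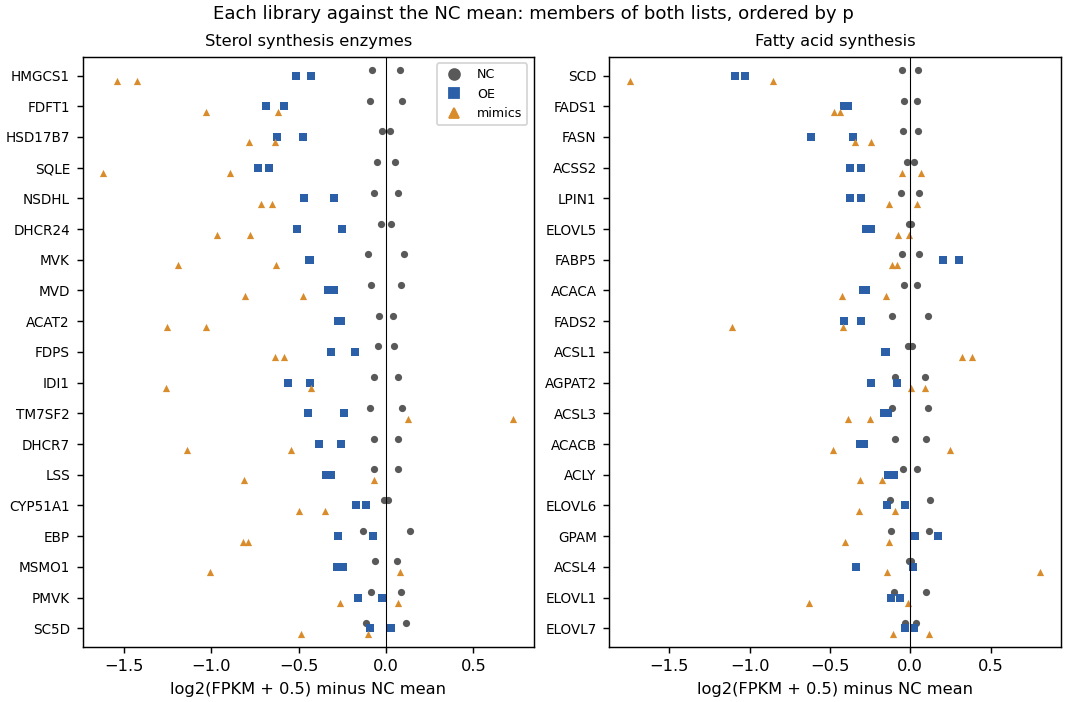
Level of each library as log2(FPKM + 0.5) minus the NC mean for sterol synthesis enzymes (left) and fatty acid synthesis genes (right), 19 of each, ordered by p, with 1 point per library. OE squares lie left of the NC circles in most of the enzymes and in 12 of the fatty acid genes, and SCD is the gene with the widest gap.

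A sterol regulatory element core, TCACCCCA, was found on either strand in 1.29% of all promoters and in 1 of 15 sterol synthesis promoters, that of MVK. The promoter of SREBF2 held it too. Only 15 of the 20 synthesis enzymes had a promoter to search, and a missing match says only that these exact letters are not there. The CCAAT box, to which the SREBP partner NF-Y binds, was in 37.1% of all promoters and 12 of the 15 (80%). The promoters of fatty acid synthesis genes held CCAAT in 7 of 17 (41.2%) and TCACCCCA in none. Shown are the stretches with the TCACCCCA core of MVK (plus strand, chr12:109573584-109573621) and SREBF2 (plus strand, chr22:41832957-41832994) and with both CCAAT boxes, read as ATTGG on the gene's strand, of HMGCS1 (minus strand, chr5:43313493-43313582), with the matches in capitals.
MVK: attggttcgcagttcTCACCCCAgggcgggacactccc
SREBF2: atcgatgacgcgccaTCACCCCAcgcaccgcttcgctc
HMGCS1: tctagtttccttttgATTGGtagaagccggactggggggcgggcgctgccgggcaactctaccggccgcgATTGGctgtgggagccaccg
MVK was at 18.7 and 21.5 FPKM in NC and 14.6 and 14.7 in OE (-0.44, adjusted p = 0.71), lower in both OE libraries without passing.

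Genes induced by low oxygen through HIF1A were lower as well. Of 24 tested outside glycolysis, 18 (75%) were under NC and 1 (4.17%) above it in both OE libraries. The shares of all tested genes were 27.2% and 15.3%. The list median was -0.21, with -0.24 and -0.23 in the 2 OE libraries against a difference of 0.04 between the NC libraries. None passed the 6-library fit, and NDRG1, DDIT4 and BNIP3L passed the 4-library fit. NDRG1, a differentiation-linked stress protein that androgen also induces, was at 29.3 and 35.2 FPKM in NC and 18.9 and 20.2 in OE (-0.70, adjusted p = 0.0742 and 0.03). DDIT4, an inhibitor of mTOR, was at 30.7 and 36.7 FPKM in NC and 20.6 and 21.2 in OE (-0.67, adjusted p = 0.214 and 0.0317). BNIP3L, a receptor for the removal of mitochondria, was at 26.9 and 25.5 FPKM in NC and 18.3 and 17.3 in OE (-0.55, adjusted p = 0.522 and 0.0359). OE lay under NC in all 3, and mimics lay above NC, at 86.7 and 94.8 FPKM for NDRG1, 139 and 107 for DDIT4 and 64.7 and 43.7 for BNIP3L. The list median in mimics against the same NC libraries was 0.95. Culture density and oxygen were not recorded in the labels. DDIT4 and BNIP3L have exons of other transcripts on the opposite strand.

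In glycolysis PFKFB4, which sets the level of the activator fructose 2,6-bisphosphate, fell (from 5.62 and 6.02 FPKM in NC to 2.76 and 2.92 in OE, -0.92, adjusted p = 0.0213) and shares exons with UCN2. PFKP, the platelet form of phosphofructokinase, was at 4.34 and 4.75 FPKM in NC and 2.18 and 2.44 in OE (-0.84, adjusted p = 0.146 and 0.0289). ENO2, neuronal enolase, was at 7.28 and 8.59 FPKM in NC and 3.59 and 3.24 in OE (-1.11, adjusted p = 0.236 and 0.00774). These 3 genes were lower in both OE libraries. Of the 24 glycolysis and lactate export genes tested, 10 (41.7%) were under NC and 1 (4.17%) above it, against 27.2% and 15.3% of all tested genes. Their median of -0.12 was within the 0.17 by which the NC libraries differed. BDH1, which makes the ketone body hydroxybutyrate, was at 7.51 and 8.198 FPKM in NC and 4.203 and 3.62 in OE (-0.92, adjusted p = 0.0807 and 0.0161).

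Immediate early genes are transcription factors that growth signals switch on within minutes. Of 23 tested, 16 (69.6%) were under NC in both OE libraries and 2 (8.7%) above it, against 27.2% and 15.3% of all tested genes. Their median was -0.21 (-0.28 and -0.22 in the 2 OE libraries, 0.06 between the NC libraries). EGR3 was at 7.22 and 8.41 FPKM in NC and 3.32 and 3.51 in OE (-1.08, adjusted p = 0.527 and 0.00719), and EGR1 at 31.2 and 34.1 FPKM in NC and 21.2 and 22.01 in OE (-0.58, adjusted p = 0.985 and 0.0283). FOS was at 10.3 and 12.4 FPKM in NC and 6.52 and 7.48 in OE (-0.66, adjusted p = 0.345). All 3 were lower in both OE libraries than in both NC libraries, the first pair passing the 4-library fit only. Of 21 feedback genes of the same MAP kinase and receptor signals, 10 (47.6%) were under NC in both OE libraries and 4 (19%) above it. Their median was -0.11, and none passed the 6-library fit. ERRFI1, a feedback inhibitor of the EGF receptor, was at 41.2 and 39.02 FPKM in NC and 26.6 and 27.9 in OE (-0.55, adjusted p = 0.444 and 0.03), and DUSP10, a phosphatase of stress kinases, at 9.06 and 10.2 FPKM in NC and 6.100 and 5.67 in OE (-0.66, adjusted p = 0.513 and 0.0409). ID2, an inhibitor of helix-loop-helix factors and a BMP target, was at 42.3 and 44.1 FPKM in NC and 29.3 and 29.04 in OE (-0.56, adjusted p = 0.116 and 0.0238). In the TGF-beta and BMP list 16 of 30 genes (53.3%) were under NC and 5 (16.7%) above it (median -0.16). EGR3, ERRFI1 and ID2 have antisense transcripts.

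Luminal and epithelial genes showed small shifts. Of 26 androgen-regulated and luminal genes 14 (53.8%) were under NC and 3 (11.5%) above it, with a median of -0.11. Of the 10 prostate luminal markers 7 (70%) were under NC and none above (median -0.17). The shares of all tested genes were 27.2% under NC and 15.3% above it. TMPRSS2, an androgen-induced surface protease, was at 16.8 and 19.4 FPKM in NC and 10.1 and 10.5 in OE (-0.78, adjusted p = 0.575 and 0.0164). KLK3, prostate-specific antigen, was at 12.7 and 12.8 FPKM in NC and 10.7 and 12.1 in OE (-0.15, adjusted p = 0.998). TMPRSS2 was lower in both OE libraries, and KLK3 slightly so. Of 22 adherens junction and desmosome genes 14 (63.6%) were under NC and 3 (13.6%) above it (median -0.12). EPCAM, an epithelial adhesion protein, was at 10.5 and 11.1 FPKM in NC and 8.100 and 7.41 in OE (-0.46, adjusted p = 0.389), and CLDN7, a tight junction claudin, at 149 and 164 FPKM in NC and 108 and 112 in OE (-0.50, adjusted p = 0.214 and 0.0493). KRT7, a keratin of simple ducts, was higher, at 1.13 and 0.829 FPKM in NC and 2.904 and 2.97 in OE (1.23, adjusted p = 0.204 and 0.0142). EPCAM and CLDN7 were thus lower and KRT7 higher with no overlap. In the tight junction list 7 of 23 tested genes (30.4%) were under NC and 3 (13%) above it, near the shares of all tested genes. Among the 6 keratins tested, 3 (50%) were under NC and 2 (33.3%) above it. The keratin median was -0.20, opposite in sign to the change of KRT7. CLDN7 lies in the chromosome 17 stretch and overlaps other genes, and KRT7 has an antisense transcript.

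Ion channels and neural genes differed in both directions. CACNA2D1, an auxiliary subunit of voltage-gated calcium channels, was at 4.79 and 4.05 FPKM in NC and 8.26 and 7.91 in OE (0.81, 95% confidence interval 0.49 to 1.13, adjusted p = 0.0905 and 0.0266), and CACNG4, another auxiliary subunit, at 3.22 and 3.41 FPKM in NC and 1.24 and 1.48 in OE (-1.04, adjusted p = 0.0663 and 0.0177). Among nicotinic receptor subunits, CHRNB2 was at 1.57 and 1.76 FPKM in NC and 3.06 and 3.28 in OE (0.76, adjusted p = 0.268 and 0.0493). CHRNE was at 5.64 and 6.65 FPKM in NC and 3.53 and 3.51 in OE (-0.72, adjusted p = 0.153 and 0.0459), and CHRNA2 at 24.7 and 23.4 FPKM in NC and 16.3 and 15.97 in OE (-0.56, adjusted p = 0.296 and 0.0302). CACNA2D1 and CHRNB2 were higher in both OE libraries and CACNG4, CHRNE and CHRNA2 lower, and all 5 passed the 4-library fit only. CHRNE lies opposite exons of MINK1 and GP1BA, in the chromosome 17 stretch, and CHRNB2 and CACNG4 also have antisense transcripts. The neuroendocrine list held 27 genes, of which only 12 were tested. CRH, GRP, NTS, PCSK2, PENK and TAC1 were at 0 FPKM in all 4 libraries. Of the 12 neuroendocrine genes tested 9 (75%) were above NC and 1 (8.33%) under it in both OE libraries. The shares of all tested genes were 15.3% and 27.2%. The list median was 0.20 (0.15 and 0.25 in the 2 OE libraries). NMB, the peptide neuromedin B, was at 66.6 and 71.6 FPKM in NC and 91.9 and 101 in OE (0.48, adjusted p = 0.264), and DDC, the decarboxylase that makes dopamine and serotonin, at 2.02 and 2.005 FPKM in NC and 3.46 and 3.37 in OE (0.64, adjusted p = 0.274). SCRT2, a neural repressor of the Snail family, was at 0.5805 and 0.592 FPKM in NC and 1.28 and 1.32 in OE (0.73, adjusted p = 0.285). These 3 were higher in OE without overlap and without passing either fit, and ENO2, the gene under NC, went against them.

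Other genes with small p on the higher side were ABCG2, a drug efflux pump, at 1.65 and 1.98 FPKM in NC and 3.18 and 3.19 in OE (0.67, adjusted p = 0.265), SIM2, a neural transcription factor (0.47, 0.268), and SPINK1, a trypsin inhibitor (0.85, 0.268). KBTBD11, a kelch-repeat protein, was at 11.4 and 11.8 FPKM in NC and 18.8 and 18.9 in OE (0.68, adjusted p = 0.653 and 0.0154). These genes were higher in both OE libraries, and none passed the 6-library fit. NXF2B (1.85, adjusted p = 0.321 and 0.00236) shares exons with AC235565.2, which fell (-2.25, adjusted p = 0.00785), so reads cannot be assigned with certainty to either gene. PCDHA4 (0.94) and AC005154.5 (0.88) also share exons with neighbours. The transcripts AL355312.5, AC118553.2 and AC117378.1, lower by -2.08, -1.70 and -2.27, passed the 4-library fit only.

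Among lower genes of the band, MYO1D, an unconventional myosin, was nearest to passing, at 33.95 and 36.3 FPKM in NC and 20.5 and 21.5 in OE (-0.73, adjusted p = 0.0517 and 0.00935). MAP1LC3A, a membrane-bound mark of autophagosomes, was at 6.26 and 7.43 FPKM in NC and 3.32 and 3.59 in OE (-0.89, adjusted p = 0.0572 and 0.0214). Both were lower in every OE library. Of 33 autophagy genes 17 (51.5%) were under NC and 2 (6.06%) above it (median -0.10), against 27.2% and 15.3% of all tested genes. Others were NELL2, a secreted neural glycoprotein (-0.80, adjusted p = 0.0916), TSPAN13, a tetraspanin (-0.55, 0.0916), MAN1C1, a Golgi mannosidase (-0.93, 0.108), and SNCG, gamma-synuclein (-0.64, 0.108). SLC25A29, a mitochondrial carrier of basic amino acids (-0.60, 0.139), GET4, a factor for tail-anchored proteins (-0.57, 0.12), OSBPL9, a lipid transfer protein (-0.70, 0.141), and PRSS41, a serine protease (-0.95, 0.106), were lower too. ZMYND10 (-0.99, 0.107) and TMEM107 (-0.66, 0.138) serve cilia. All passed the 4-library fit except OSBPL9, with adjusted p from 0.00935 for MYO1D to 0.0364 for SNCG and 0.0548 for OSBPL9. MYO1D, SLC25A29, GET4, OSBPL9, ZMYND10 and TMEM107 overlap other transcripts, and TMEM107 lies in the chromosome 17 stretch described further on.

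Differences of housekeeping groups were small, and some depended on the scaling. Of all tested genes 15.3% were above NC in both OE libraries and 27.2% under it. Of 83 cytosolic ribosomal protein genes 50 (60.2%) were above and 1 (1.2%) under (median 0.17). Yet OE1 stood at 0.11 and OE2 at 0.23, and the NC libraries differed by 0.13. After quantile normalization the median was 0.0901. Mitochondrially encoded genes were above NC in 12 of 13 (median 0.17), but quantile normalization brought the median to 0.00355 with 2 above. Their share of the FPKM sum also differed by library. With the libraries rescaled without these genes, 36 rows were called, as before, and the sterol synthesis median was -0.34. Nuclear genes of the respiratory chain were above NC in 30 of 79 (38%) and under it in 6 (7.59%), with a median of 0.04. Ribosome biogenesis genes were above in 14 of 29 (48.3%) and under in none (median 0.10). ZNF zinc finger genes were above in 109 of 442 (24.7%) and under in 35 (7.92%), with a median of 0.07. No member of these groups passed either fit. For the ZNF genes the NC libraries differed from each other by -0.16, which is more than the median shift. Mitosis genes were under NC in 16 of 30 and above in none (median -0.12, with 0.02 between the NC libraries), without 1 call in either fit. PLK1, a mitotic kinase, was at 67.7 and 73.7 FPKM in NC and 54.4 and 58.7 in OE (-0.32, adjusted p = 0.713). Homologous recombination and Fanconi genes were above in 8 of 34 (23.5%) and under in none (median 0.10), although the NC libraries differed by -0.25.

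**Figure D4:**
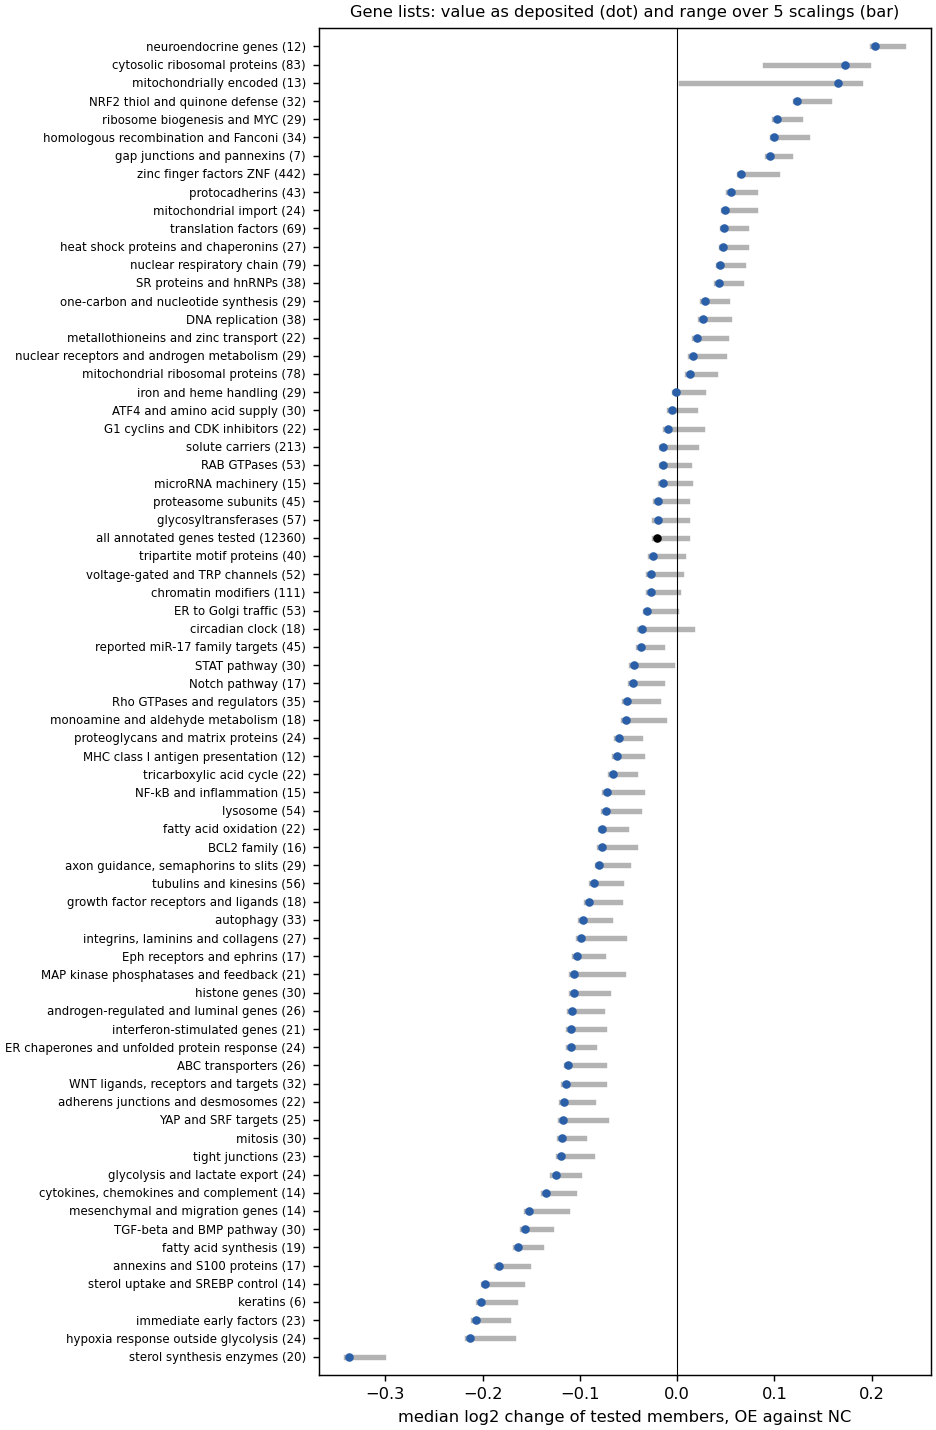
Median log2 change of OE against NC (horizontal axis) of the gene lists with at least 3 tested members, with the number tested in brackets. Dots are the values as deposited and bars the range over 5 scalings; sterol synthesis enzymes are lowest at -0.34, all annotated genes (black) stand at -0.02, and neuroendocrine genes are highest at 0.20.

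Lower levels were also clustered in the genome. The short arm of chromosome 17, taken as the genes that start up to position 22500000 on GRCh38, held 227 tested genes with a median change of -0.24, a level 15.1% lower, and a middle range (25th to 75th percentile) from -0.34 to -0.13. Of these genes 212 had a negative change, 170 (74.9%) were under NC in both OE libraries and 6 above. The remaining 532 genes of chromosome 17 had a median of -0.04, with 334 negative, 30.6% under NC and 12.2% above. The other chromosomes had a median of -0.02, with 6345 of 11601 genes negative, 26.2% under NC and 15.7% above. The stretch was picked after its values were seen, so these values are a description with no test. In windows of 2.5 Mb with at least 15 tested genes, its 6 windows were the lowest of 249, at -0.32 to -0.18, and the lowest window elsewhere, on chromosome 2, was at -0.14. The stretch was lower in both OE libraries (-0.24 and -0.22), while the NC libraries differed by 0.05. It was also lower in mimics replicate 1 (-0.31) and replicate 2 (-0.13), which are set against the same NC libraries. The direct difference of OE and mimics had a median of -0.01, and whether both treated groups were low or NC was high cannot be told apart. Over the 5 scalings the median of the stretch was -0.24 to -0.21.

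**Figure D5:**
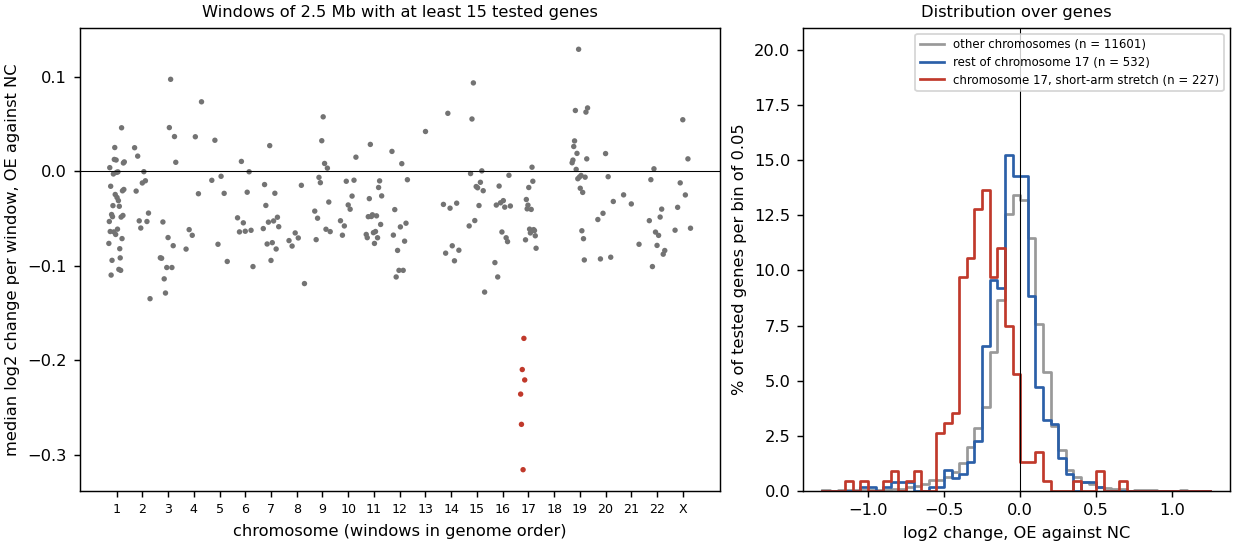
Left, median log2 change of OE against NC of each 2.5 Mb window with at least 15 tested genes, ordered along chromosomes; right, percentage of genes per bin of log2 change. The 6 red windows of the short arm of chromosome 17 lie under every other window, and its 227 genes (red) are shifted to the left as a whole against the rest of chromosome 17 (blue) and the other chromosomes (grey).

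MIEF2 and FLII, neighbours on opposite strands, were the 2 genes of the stretch that fell. MIEF2, an outer mitochondrial membrane protein that recruits the fission enzyme DRP1 (chromosome 17, 18260534 to 18266552, plus strand), was at 63.4 and 68.4 FPKM in NC and 27.9 and 32.2 in OE (-1.12, 95% confidence interval -1.42 to -0.83, adjusted p = 0.0129). FLII, an actin-binding coactivator (chromosome 17, 18244836 to 18258916, minus strand), was at 125 and 129.7 FPKM in NC and 65.7 and 70.9 in OE (-0.90, adjusted p = 0.0176). Both OE libraries stood at about the level of mimics (32.3 and 40.1 FPKM for MIEF2 and 68.6 and 81.05 for FLII) and well under NC. YBX2, a germ-cell RNA-binding protein, was at 58.3 and 60.3 FPKM in NC and 36.3 and 38.1 in OE (-0.67, adjusted p = 0.204 and 0.0111). It shared the direction without passing the 6-library fit. FLII and YBX2 each have another gene on the opposite strand. Without the stretch the band held 33 genes higher and 150 lower, and 31 genes fell.

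The microRNA and GTPase of the series title enter this comparison through genes reported as miR-17 family targets. The family shares the seed of miR-106a-5p, whose sequence is printed here from RefSeq (GRCh38.p14, minus strand, chrX:134170244-134170266) with the seed, bases 2 to 8, in capitals.
hsa-miR-106a-5p: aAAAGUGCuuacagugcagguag
Of 45 reported targets tested, 2 fell, EPHA4 and F3, against 0.267% of all tested genes. In both OE libraries 17 (37.8%) were under NC and 5 (11.1%) above it, against 27.2% and 15.3% of all tested genes. The median of the targets was -0.04. RAB31, a GTPase of endosome and Golgi traffic, was at 1.85 and 1.597 FPKM in NC and 0.9798 and 0.986 in OE (-0.58, adjusted p = 0.413 and 0.161), lower in both OE libraries without passing. TXNIP, an inhibitor of thioredoxin and glucose uptake, was at 80.6 and 86.7 FPKM in NC and 62.8 and 58.4 in OE (-0.46, adjusted p = 0.237), and TIMP3, an inhibitor of matrix proteases, at 1.13 and 1.07 FPKM in NC and 1.98 and 1.93 in OE (0.62, adjusted p = 0.431). TXNIP was lower and TIMP3 higher with no overlap. MAGI2, a scaffold protein of cell junctions, was at 0.6105 and 0.849 FPKM in NC and 0.587 and 0.617 in OE (-0.15, adjusted p = 0.998), and its groups overlapped. Its exons overlap those of MAGI2-AS3 on the opposite strand, so its read assignment is uncertain.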

How the data were processed

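Reads were aligned with HISAT2 2.0.4 to GRCh38, per the submitters' processing notes; which tool made the FPKM, and whether strand was used, is not given in the sources used here. Used were FPKM per gene and library as deposited by the authors, with no read counts, so the depth is unknown and no count model was used. The 13998 rows that averaged at least 0.5 FPKM over the 6 libraries, 1638 of them genes without an Ensembl identifier, entered limma 3.58.1 (R 4.3.3) on log2(FPKM + 0.5), with empirical Bayes moderation along the intensity trend, 1 coefficient per group and Benjamini-Hochberg adjustment over all rows at 0.05. Changes are therefore on the log2(FPKM + 0.5) scale, which understates those of low genes. The 4-library fit took NC and OE alone. Annotations and antisense overlaps are from GENCODE 29 (GRCh38), and promoters and the microRNA from RefSeq.

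Named genes were the annotated genes called in the 6-library fit, of those called in the 4-library fit only, up to 12 of smallest p in each direction (9 were higher), the 15 of smallest p in each direction of the band, and for each gene list described its defining genes and up to 6 members. RAB31 and MAGI2 were always included. CHRNE and CHRNA2, given beside CHRNB2, were picked outside these rules and belong to no list. The members and lists were chosen with earlier results of these data known. Simulated data held 50 genes at each change. Called were 4 genes changed by 0.5, 27 by 1, 45 by 2 and 47 by 3 on the log2 scale, with 5 false calls among 13798. The simulated noise was normal, independent between libraries and of the same spread in all groups. The real mimics libraries differed more from each other, so these rates need not hold for the real data. A few members of the lists are counted but are not reported here by name.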

Additional observations from a re-analysis of the deposited data

How the results depend on the processing

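Over all 13998 rows the 6-library fit called 36, of which 2 were higher and 34 lower. With NC and OE alone it was 119 (11 and 108), and the band held 485 annotated genes (99 and 386). Without a filter on low values no row passed in the limma fit, although 1334 had an unadjusted p under 0.05; no other fit was run without the filter. With a minimum of 2 FPKM 1 was higher. Leaving out 1 library gave 5 to 120 calls, with 0 to 11 higher and 3 to 109 lower, and a band of 63 to 495 genes, 8 to 101 higher and 55 to 394 lower. The higher side of the band went from 34 to 53 with rescaling to the same median, 52 with TMM factors and 60 with quantile normalization. With a replicate block 9 rows passed, none higher and 9 lower, but same-numbered libraries did not deviate together (r = 0.153 between NC and OE, -0.0268 and 0.0194 with mimics), so the samples share only a number. Of the 35 genes called, 35 also passed with NC and OE alone, 32 after median rescaling, 31 with TMM, 32 with quantile normalization, 29 without the intensity trend and 2 to 7 without 1 of the NC or OE libraries. The log2 changes of 80 genes, the 35 called among them, were recomputed under each setting that tested them and did not change sign. With the minimum of 2 FPKM only 25 of the 35 called genes and 36 of the other 45 were tested, and those 25 still passed. Other genes given with values were not recomputed. Removing the chromosome 17 stretch was chosen after seeing the data. With 2 libraries a group and no read counts, a missed call does not show that a gene was unchanged. The cause of these differences between settings was not tested.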

Other observations

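Other groups moved little. Of 21 interferon-stimulated genes tested 11 (52.4%) were under NC and 3 (14.3%) above it in both OE libraries. Of all tested genes 27.2% were under NC and 15.3% above it. The interferon list had a median of -0.11, and BST2 was the member that fell. Of 32 WNT ligands, receptors and targets 16 (50%) were under NC and 6 (18.8%) above it (median -0.11), and DKK1 was the member that fell. Protocadherins stood above NC in 16 of 43 cases (37.2%) and under it in 7 (16.3%), with a median of 0.06. Histone genes were under NC in 13 of 30 (43.3%) and above it in 3 (10%), with a median of -0.11, and H1F0 was the member that fell. In 53 RAB GTPases 12 (22.6%) were above NC and 15 (28.3%) under it, against 15.3% and 27.2% of all tested genes. Their median of -0.01 was near that of all genes. No member passed either fit.

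Of the 36 rows called, 1 was a gene without an Ensembl identifier, and it was lower in OE.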
